A study of Mus musculus with 8 samples.

Results

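miR-467 is a family of mouse microRNAs, most of them cut from hairpins that lie one after another inside the gene Sfmbt2. The small RNA table held 13 features whose name begins with miR-467, out of 813 microRNAs and 2403 features in all. Members were chosen by name, and their values were used only to find those that are not separate measurements. Features whose values stood in a constant ratio in all 8 libraries (within 2% plus rounding) were counted once, which left 11 measurements. The libraries came from immortalized mouse skin fibroblasts on a C57BL/6 background, either wild type (WT) or from mir210lox/lox mice, whose libraries are titled KO. Each genotype was kept at 21% O2 (normoxia) or 1% O2 (hypoxia) for 24 h, and each of the 4 groups had 2 libraries, numbered 1 and 2. The labels name no Cre line, do not say how the cells were immortalized and do not state whether both libraries of a group stem from one culture. The p-values therefore describe the spread among these libraries, which may be technical.

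Sfmbt2 encodes a Polycomb group protein and is an imprinted gene in the mouse, read from the paternal copy and best known for its role in the placenta. The microRNA cluster in its intron is found in rodents and consists of repeated copies of a few related hairpins, named miR-297, miR-466, miR-467 and miR-669. Each hairpin can yield a microRNA from either arm, called 5p and 3p. A microRNA recognises its targets mainly through its seed, bases 2 to 8 from its 5′ end. The seeds of several miR-467 5p arms hold the letters AAGTGC, which also stand at the start of the miR-17 and miR-290 families, microRNAs known for promoting proliferation and for marking embryonic stem cells.

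The 5p arms and miR-467h, whose sequence resembles them, are shown first because the 5p arms hold most of the reads of the family. All are given 5′ to 3′ in DNA letters with the seed in capitals.
miR-467a-5p: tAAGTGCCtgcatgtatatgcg
miR-467b-5p: gTAAGTGCctgcatgtatatg
miR-467c-5p: tAAGTGCGtgcatgtatatgtg
miR-467d-5p: tAAGTGCGcgcatgtatatgcg
miR-467e-5p: aTAAGTGTgagcatgtatatgt
miR-467h: aTAAGTGTgtgcatgtatatgt

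Counted from the first base of the microRNA, miR-467c-5p differs from miR-467a-5p by C8G and C21T, and miR-467d-5p differs from miR-467a-5p by C8G and T9C. Between miR-467c-5p and miR-467d-5p, which share a seed, the differences are T9C and T21C. miR-467b-5p is miR-467a-5p read from 1 base earlier, so its seed is shifted. Among all 813 microRNAs listed, only miR-292-3p shared the seed AAGTGCC of miR-467a-5p with it (2 to 8 normalized reads in 7 libraries and 0 in KO normoxia number 2), and none outside the family had the seed of another 5p arm or of miR-467h.

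The 3p arms are printed with miR-467g and miR-467f to show how long the stretches are that they share.
miR-467a-3p: cATATACAtacacacacctaca
miR-467d-3p: aTATACATacacacacctacac
miR-467c-3p: aTATACATacacacacctatac
miR-467e-3p: aTATACATacacacacctatat
miR-467b-3p: aTATACATacacacaccaacac
miR-467g: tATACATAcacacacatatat
miR-467f: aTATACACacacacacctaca

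miR-467a-3p and miR-467d-3p share a run of 21 bases, miR-467c-3p and miR-467e-3p share 21, and every pair made of one from each of these couples shares 19. miR-467g shares 15 bases with each of the 5 3p arms, and miR-467f shares 10 to 13. The seed ATATACA of miR-467a-3p also occurs in 2 microRNAs outside the family, miR-669f-3p (20 to 68 normalized reads) and miR-669b-3p (1 to 17). Sequences of miR-467f, miR-467g and miR-467h are RefSeq's (GRCm38.p6), and the others are the deposited sequences without their first and last base. That trimming gave the RefSeq sequence for 522 of the 556 microRNAs that could be compared, 3 of 3 miR-467 members among them.

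In GENCODE's annotation of GRCm38, 14 of the 17 hairpins named Mir467 lie on the plus strand of chromosome 2 between positions 10473931 and 10507714, in introns of Sfmbt2 (10370510 to 10595253, plus strand) and in none of its exons. Of these 14, 10 are copies of Mir467a. The 3 others are not in the cluster. Mir467g lies on the minus strand of chromosome 5 (34732853 to 34732972) in an intron of Grk4, which runs on the other strand. Mir467f lies on the minus strand of chromosome 11 (69635400 to 69635519) in an intron of Fxr2, also opposite in strand, and Mir467h lies on the plus strand of chromosome 9 (115381819 to 115381939) with no annotated gene around it. So the family name covers more than the Sfmbt2 cluster, and the deposited table places the same 3 members on chromosomes 5, 11 and 9. Its coordinates belong to a build not given in the sources used here and are not printed.

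The copies also decide what can be told apart. The miR-467a-5p sequence occurs in 12 annotated hairpins, namely the 10 Mir467a copies, Mir467b and the unnamed copy Gm25022 (chromosome 2, 10500822 to 10500904), and the miR-467b-5p sequence occurs in the same 12.

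The value of miR-467a-5p was 9.99 to 10.01 times that of miR-467b-5p in every library, so the pair counts as 1 measurement, given here as miR-467a-5p. miR-467a-3p stood at 8.60 to 9.09 times miR-467d-3p, which also joined them, and the miR-467a-3p and miR-467d-3p sequences each occur in 12 hairpins. Next outside the limit were miR-467d-3p and miR-467g, at ratios of 1.38 to 1.56. No feature outside the family was proportional to a member. The sources used here do not say how reads that match several copies were shared out.

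The 8 libraries summed to 8618630 to 12167438 normalized reads over all features, and microRNAs took 73.0% to 82.0% of each. Their share was 78.8% and 80.7% for WT at normoxia and 78.6% and 82.0% for WT at hypoxia. It was 75.3% and 76.7% for KO at normoxia, below WT at normoxia without overlap, and 73.0% and 80.2% for KO at hypoxia. miR-210-3p, the microRNA named in the genotype, held 4786 to 39011 in the 4 WT libraries and 10 to 32 in the 4 KO libraries, so the titles and miR-210 go the same way. Of the marker lists, the 15 fibroblast features summed to 3700643 to 5747011 in each library. Haematopoietic microRNAs summed to 934 to 3154, neural to 716 to 1303, muscle to 121 to 299, epithelial to 100 to 290, endothelial to 102 to 191 and those of embryonic stem cells to 37 to 58. No feature of the deposited table was at 0 in every library, so a marker never detected would not be listed. The 12 names of the embryonic stem cell list matched 7 listed features. By group, the haematopoietic sum ranged from 2369 to 2425 for WT at normoxia, 1662 to 3154 for WT at hypoxia, 1091 to 2336 for KO at normoxia and 934 to 1614 for KO at hypoxia. The haematopoietic sum was thus lower in KO normoxia than in WT normoxia without overlap. The same held for 3 other lists. KO normoxia held 102 to 132 against 143 to 191 for endothelial and 716 to 906 against 945 to 1184 for neural microRNAs. For embryonic stem cell microRNAs it held 40 against 55 to 58. In hypoxia the KO sums were likewise below the WT sums without overlap for haematopoietic and endothelial microRNAs (117 to 145 against 153 to 174 for endothelial). The neural and embryonic stem cell sums overlapped between the genotypes in hypoxia. Of single microRNAs, 202 of the 579 tested were lower without overlap in KO at normoxia, and 84 in KO at hypoxia. The muscle sum was 121 to 149 for KO at normoxia and 212 to 238 for KO at hypoxia. The part of these lists in the differences below was not tested.

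The family took 0.0421% to 0.127% of the microRNA total, between 3332 (KO normoxia number 2) and 9887 (WT hypoxia number 1) normalized reads. One pair, miR-467a-5p with miR-467b-5p, made up 66.6% to 79.8% of the family in each library. Levels below are normalized reads per feature, and since microRNAs have nearly the same length, they need no length correction. Since the division of reads over copies is unknown here, the order of members with many copies and with 1 copy, and their shares of the family, hold for the deposited values only.

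miR-467a-5p, the most abundant member, held 6448 and 6721 at normoxia and 6836 and 3705 at hypoxia in the WT libraries, against 2468 and 2332 at normoxia and 5554 and 6021 at hypoxia in the KO libraries. Both KO normoxia libraries were lower than all 6 others, and the next lowest was WT hypoxia number 2. The WT hypoxia libraries differed 1.85-fold from each other, against 1.04-fold to 1.08-fold within the 3 other groups. Group means for WT were 6584.5 ± 193 (SD, n = 2) at normoxia and 5270.5 ± 2214 at hypoxia, and for KO 2400 ± 96.2 and 5787.5 ± 330. In bulk RNA, fewer cells that make a microRNA and less of it per cell cannot be told apart.

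miR-467c-5p, cut from a single hairpin at the start of the miR-467 stretch, followed the same order of group means at a lower level. It held 704 and 693 at normoxia and 811 and 400 at hypoxia in the WT libraries, against 317 and 245 at normoxia and 664 and 605 at hypoxia in the KO libraries. As with miR-467a-5p, WT hypoxia number 2 was the lowest WT library, and the KO normoxia libraries were below all others. miR-467a-5p was 7.79 to 9.95 times miR-467c-5p, a ratio too variable to join them.

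The remaining 5p arms did not share the low value of WT hypoxia number 2. miR-467d-5p, which has the seed of miR-467c-5p, held 135 and 108 at normoxia and 125 and 146 at hypoxia in the WT libraries, against 58 and 65 at normoxia and 77 and 102 at hypoxia in the KO libraries. Its highest value was that of WT hypoxia number 2, and every KO library was below every WT library. miR-467e-5p held 175 and 208, 169 and 198, 164 and 98, and 187 and 145 in the same order of groups, with overlap between every pair of groups except WT normoxia and KO normoxia, and WT hypoxia and KO normoxia.

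Among the 3p arms, miR-467a-3p held 707 and 506 at normoxia and 742 and 780 at hypoxia in the WT libraries, against 430 and 209 at normoxia and 474 and 595 at hypoxia in the KO libraries. Here the highest library was WT hypoxia number 2, the lowest was KO normoxia number 2, and the KO normoxia libraries differed 2.06-fold. miR-467c-3p (45 to 159), miR-467e-3p (49 to 154), miR-467g (16 to 60) and miR-467f (14 to 63) were likewise lowest in KO normoxia number 2, and the highest value of each was in WT hypoxia. Thus miR-467g and miR-467f, annotated on other chromosomes, had values that ran with the 3p arms of the cluster, with which they share the runs of letters given above.

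**Figure D1:**
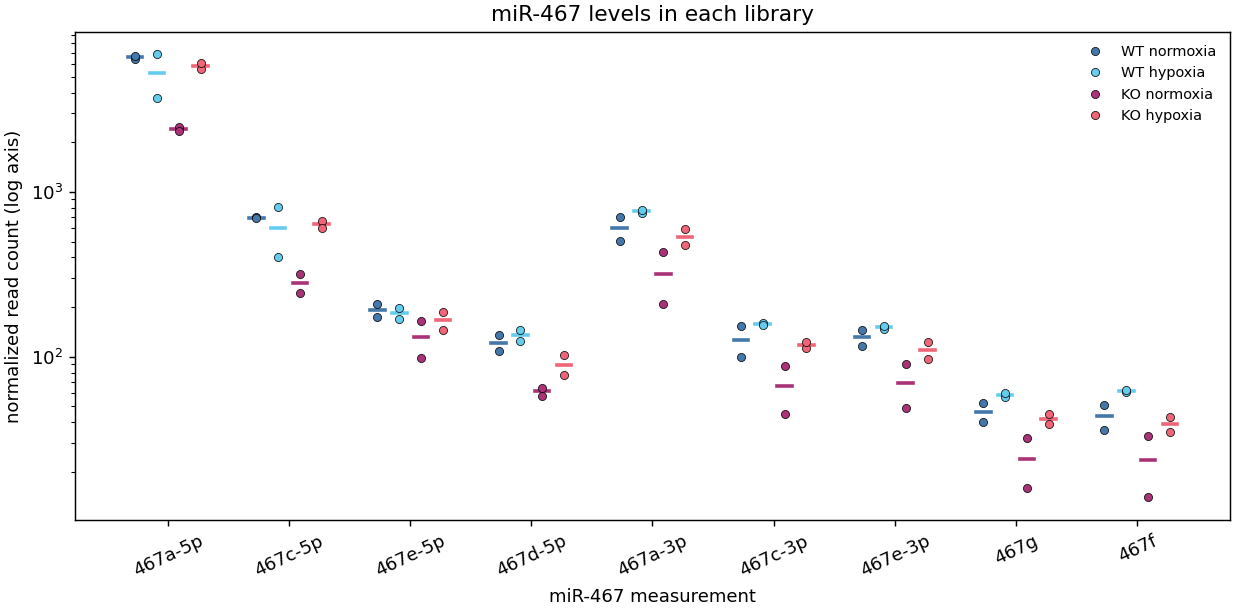
Normalized read counts (log axis) of the 9 miR-467 measurements that passed the filter on low values, 1 point per library (2 per group) with a bar at the group mean. The 5p arms of miR-467a and miR-467c show 1 low WT hypoxia library (3705 and 400), while the WT hypoxia libraries of the 3p arms lie close together.

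Both remaining measurements were near the limit of detection. miR-467h, which differs from miR-467e-5p by A10T, held 7 and 6 at normoxia and 9 and 2 at hypoxia in the WT libraries, against 0 and 0 at normoxia and 4 and 2 at hypoxia in the KO libraries. If the scaled values are taken as counts, a 0 in these libraries allows up to 3.48e-05% and 2.91e-05% of the total (3 counts, counting error only). The differences of miR-467h were not tested. miR-467b-3p held 0 to 3 in every library, although the 5p arm of the same hairpin is listed at 233 to 684. That 5p sequence also occurs in the Mir467a copies, and which hairpins its reads came from was not tested. Of the 11 measurements, 9 passed the filter of at least 10 in at least 2 libraries, and these 2 did not.

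The 9 measurements fell into sets by how their log2 values ran over the 8 libraries. Pearson's r was 0.98 between miR-467a-5p and miR-467c-5p, and 0.98 to 1.00 among the 3p arms with miR-467g and miR-467f (10 pairs). Across these sets it was 0.62 to 0.74 (10 pairs). The r of miR-467d-5p was 0.61 with miR-467c-5p and 0.85 with miR-467e-3p, and that of miR-467e-5p was at most 0.79 with any other measurement. The 8 points share 4 groups and the same libraries, and the 3p arms share sequence, so these values are a description.

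**Figure D2:**
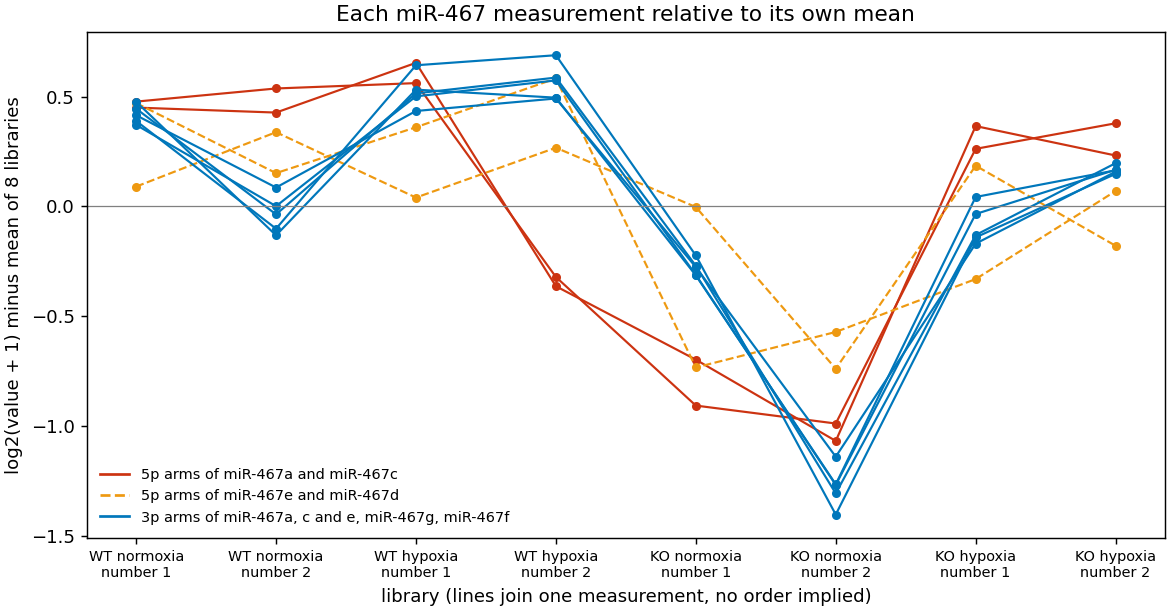
Each measurement's log2(value + 1) in each library minus its own mean over the 8 libraries. The 5p arms of miR-467a and miR-467c drop in WT hypoxia number 2, where the 3p arms, miR-467g and miR-467f are above their means, and all 9 measurements are below their means in KO normoxia number 2.

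The ratio of 5p to 3p values differed between libraries. For miR-467c and miR-467e it compares the arms of 1 hairpin each. For miR-467a it compares 2 sequences that each occur in 12 hairpins, sets that differ in Mir467b and Mir467d. The ratio of miR-467a-5p to miR-467a-3p was 9.12 and 13.3 for WT at normoxia, 9.21 and 4.75 for WT at hypoxia, 5.74 and 11.2 for KO at normoxia, and 11.7 and 10.1 for KO at hypoxia. For miR-467c the ratio was 4.60 and 6.93, 5.10 and 2.58, 3.60 and 5.44, and 5.88 and 4.92 in the same order. For both, WT hypoxia number 2 was the lowest and KO normoxia number 1 the next lowest. For miR-467e it was 1.14 to 2.0, with WT hypoxia number 1 the lowest and WT hypoxia number 2 at 1.29. The groups overlapped in this ratio for miR-467c in every pair of groups. For miR-467a they overlapped in every pair except KO hypoxia and WT hypoxia, where both KO libraries were higher. For miR-467e both KO normoxia libraries were higher than every WT library, KO normoxia number 1 only slightly above WT normoxia number 2. All other pairs of groups overlapped for miR-467e.

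**Figure D3:**
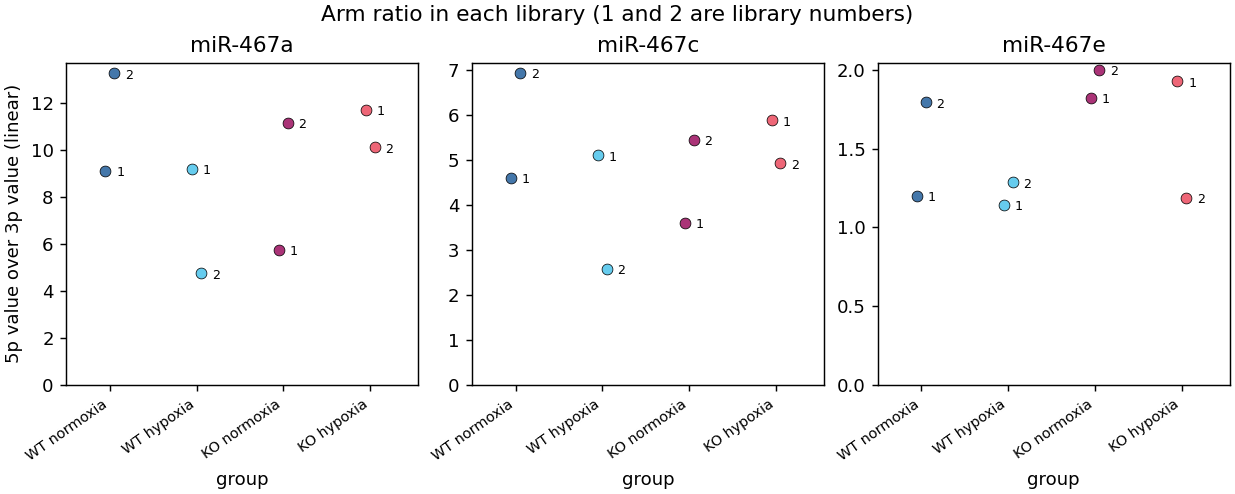
Value of the 5p arm over that of the 3p arm for miR-467a (many hairpins), miR-467c and miR-467e, 1 point per library, marked with its number (linear axes from 0, scaled separately). WT hypoxia number 2 is lowest for miR-467a (4.75) and miR-467c (2.58) but not for miR-467e (1.29).

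KO cells in normoxia held less miR-467 than WT cells in normoxia in these libraries, but no measurement passed the test. All 9 measurements were lower in both KO libraries than in both WT libraries, where 20% of the 1540 features tested were lower without overlap. Among the 579 microRNAs tested, 202 were lower without overlap. The 3p arms, miR-467g and miR-467f ran together over the libraries (r of 0.98 to 1.00), as did miR-467a-5p and miR-467c-5p (0.98). Counts out of 9, here and below, are therefore not counts of separate observations. The log2 difference was −1.46 (SE 0.31) for miR-467a-5p and −1.32 (SE 0.35) for miR-467c-5p. It was −0.99 (SE 0.37) for miR-467a-3p, −0.96 (SE 0.32) for miR-467d-5p and −0.59 (SE 0.34) for miR-467e-5p, and −0.96 to −0.98 for the 4 others. With limma, 0 of 9 had an adjusted p under 0.05 (adjusted p = 0.238 to 0.494), where 0.0649% of all features did, the single one being miR-210-3p. An unadjusted p under 0.05 with a lower value in KO was found for 7 of 9 measurements, against 4.81% of all features. At that level 67 of the 579 microRNAs were lower. The median was −0.96 over the 9 measurements, −0.28 over the 579 microRNAs tested and −0.06 over all features tested. Without KO normoxia number 2 the median of the 9 was −0.50 and that of miR-467a-3p −0.48, while miR-467a-5p stayed at −1.42.

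Hypoxia in KO cells went with higher miR-467, again with no measurement past the test. Both KO hypoxia libraries were above both KO normoxia libraries for 8 of 9 measurements, miR-467e-5p being the exception, where 15.8% of all features were higher without overlap. Among the 579 microRNAs tested, 180 were higher without overlap. miR-467a-5p gave a log2 difference of 1.27 (SE 0.31) and miR-467c-5p one of 1.18 (SE 0.35). The 3p arms gave 0.70 to 0.89, miR-467g 0.86 and miR-467f 0.82, against 0.52 (SE 0.32) for miR-467d-5p and 0.37 (SE 0.34) for miR-467e-5p. The last was 0.0059 without KO normoxia number 2 and 0.74 without number 1. In this comparison 0% of features passed limma's adjusted threshold, and the 9 measurements had adjusted p = 0.804 to 0.901. At an unadjusted p under 0.05, 3 of 9 were higher (miR-467a-5p, miR-467c-5p and miR-467c-3p), against 2.47% of all features. At that level 29 of the 579 microRNAs were higher. The median was 0.82 over the 9, 0.24 over the microRNAs and 0.02 over all features tested. It was 0.38 without KO normoxia number 2 and 1.34 without KO normoxia number 1, and for miR-467a-3p 0.30 and 1.34, whereas miR-467a-5p stayed between 1.12 and 1.33 in all 18 alternative settings.

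**Figure D4:**
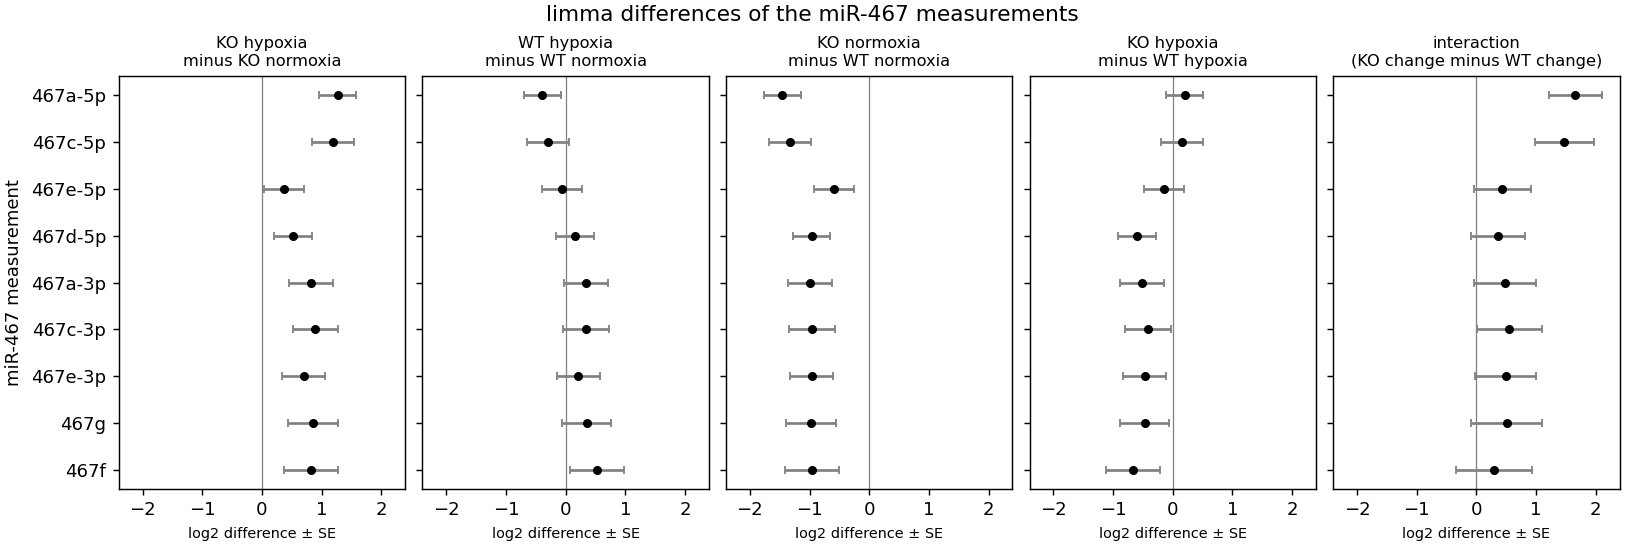
Log2 differences with their standard errors from limma for the 9 measurements in the 4 comparisons and in the interaction. The 5p arms of miR-467a and miR-467c lie farthest from 0 in KO normoxia against WT normoxia (−1.46 and −1.32) and in the interaction (1.66 and 1.48), and no point passed the adjusted threshold.

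In WT cells the hypoxia and normoxia libraries overlapped for the 4 measurements of 5p arms, and for miR-467a and miR-467c the 5p and 3p values differed in sign. miR-467a-5p had a log2 difference of −0.39 (SE 0.31) and miR-467c-5p one of −0.29 (SE 0.35), and without WT hypoxia number 2 these were 0.05 and 0.22. The other 5p arms gave 0.16 (SE 0.32) for miR-467d-5p and −0.06 (SE 0.34) for miR-467e-5p. miR-467a-3p gave 0.35 (SE 0.37), miR-467c-3p 0.34, miR-467e-3p 0.21, miR-467g 0.35 and miR-467f 0.52. These 5 were the measurements whose WT hypoxia libraries were both above both WT normoxia libraries, 5 of 9 against 14.4% of all features. They ran together over the libraries (r of 0.98 to 1.00) and share sequence, so they are not 5 separate observations. Of the 579 microRNAs tested, 46 were higher without overlap. limma called 0 of 9 (adjusted p = 1.00 for each), with 0% of all features called. None of the 9 had an unadjusted p under 0.05, where 1.1% of all features were higher at that level. The median was 0.21, against 0.02 over all features tested, and it was 0.38 without WT normoxia number 1 and 0.048 without WT normoxia number 2.

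Between the genotypes in hypoxia no measurement passed the test, and the groups of miR-467a-5p, miR-467c-5p and miR-467e-5p overlapped. The log2 difference, KO minus WT, was 0.20 (SE 0.31) for miR-467a-5p and 0.15 (SE 0.35) for miR-467c-5p, and without WT hypoxia number 2 these were −0.24 and −0.36. It was −0.52 (SE 0.37) for miR-467a-3p, −0.60 (SE 0.32) for miR-467d-5p, −0.66 (SE 0.45) for miR-467f and −0.15 (SE 0.34) for miR-467e-5p. Both KO libraries were below both WT libraries for 6 of 9 measurements, against 16.6% of all features, the 3 exceptions being miR-467a-5p, miR-467c-5p and miR-467e-5p. Of the 579 microRNAs tested, 84 were lower without overlap. With limma 0 of 9 passed (adjusted p = 0.677 to 0.970), where 0.13% of all features did, both arms of miR-210. No measurement was lower at an unadjusted p under 0.05, against 1.88% of all features. The median was −0.47, against −0.05 over the microRNAs and −0.04 over all features tested.

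To compare the response between genotypes, the WT hypoxia difference was subtracted from the KO one. The result was 1.66 (SE 0.44) for miR-467a-5p and 1.48 (SE 0.50) for miR-467c-5p, and 0.30 to 0.55 for the 7 other measurements. None of the 9 passed (limma, adjusted p = 1.00 for each), and 0% of features did. At an unadjusted p under 0.05, 2 of 9 were higher, these 2 arms, against 0.909% of all features. Of the 579 microRNAs tested, 421 were above 0, 12 of them at an unadjusted p under 0.05. The median was 0.49 over the 9, 0.25 over the microRNAs and 0.02 over all features tested. Without WT hypoxia number 2 the value was 1.21 for miR-467a-5p and 0.97 for miR-467c-5p. The comparisons share groups with each other, so these differences are not separate evidence.

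The other families of the Sfmbt2 cluster were set beside the 3p arms. miR-297, miR-466 and miR-669 had 60 features listed, of which 46 passed the filter as 38 measurements when proportional ones were joined, a few of them annotated outside the cluster. In KO normoxia against WT normoxia 36 of 38 were lower, with a median of −0.79 and 17 at an unadjusted p under 0.05. Among the 579 microRNAs tested 406 were lower there, 67 of them at an unadjusted p under 0.05. In KO hypoxia against KO normoxia 36 of 38 were higher (median 0.44), 5 of them at an unadjusted p under 0.05, against 436 and 29 of the 579 microRNAs. In WT hypoxia against WT normoxia 25 of 38 were higher (median 0.09), against 291 of the 579. In KO hypoxia against WT hypoxia 35 of 38 were lower (median −0.30), against 313 of the 579, and neither of these comparisons had one of the 38 at an unadjusted p under 0.05. None was called by limma in any comparison.

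miR-466b-3p, the most abundant of them, held 2743 and 2457 at normoxia and 2637 and 3488 at hypoxia in the WT libraries, against 1740 and 1131 at normoxia and 2125 and 2380 at hypoxia in the KO libraries. Its highest library was WT hypoxia number 2 and its lowest KO normoxia number 2, as for miR-467a-3p. miR-466d-3p (711 to 2393), miR-669a-3p (522 to 1610), miR-297a-3p (114 to 341) and the 5p arm miR-669c-5p (231 to 449) had their highest and lowest values in the same 2 libraries. miR-669a-5p spanned 291 to 454, also lowest in KO normoxia number 2, with WT hypoxia number 2 at 378.

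Outside the family, 5 features with a mean of at least 50 ran most like miR-467a-5p over the 8 libraries, by Pearson's r of log2(value + 1). They were miR-374-5p (r = 0.92), the serine transfer RNA feature chr10.tRNA1095-SerTGA (0.90), miR-423-3p (0.87), miR-17-5p (0.87) and miR-106b-5p (0.83). None came from the Sfmbt2 cluster. miR-374-5p held 22299 and 23252 at normoxia and 20849 and 19093 at hypoxia in the WT libraries, against 12338 and 13967 at normoxia and 24614 and 22683 at hypoxia in the KO libraries, with the KO normoxia libraries below all others. miR-17-5p, a growth-promoting microRNA, held 38730 and 28765, 41260 and 22555, 21237 and 18605, and 35248 and 26924 in the same order, so that WT hypoxia number 2 was its lowest WT library too. For miR-106b-5p, WT hypoxia number 2 was instead the highest WT library (39650, against 38711 and 39405 at normoxia and 35639 in WT hypoxia number 1).

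miR-17-5p and miR-106b-5p are shown because their seeds hold AAGTGC, as that of miR-467a-5p does.
miR-17-5p: cAAAGTGCttacagtgcaggtag
miR-106b-5p: tAAAGTGCtgacagtgcagat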

How the data were processed

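The deposited table gives 1 value per small RNA feature and library, by its name a normalized read count, rounded to whole numbers and treated here as a score the authors scaled. RNA was extracted with a miRNeasy kit and libraries were made with an NEB set for SOLID, per the labels' protocols. The sources used here give no aligner, genome build, normalization method or handling of reads that match several copies. Members and lists were chosen with earlier results of these data known. limma (version 3.58.1, R 4.3.3, intensity trend) was fitted to log2(value + 1) of the 1540 features holding at least 10 in at least 2 of 8 libraries, with 4 group means. Benjamini-Hochberg adjustment ran over all 1540 features, with a threshold of 0.05. The fit was tested on simulated data with a fixed spread. The share of differences recovered there is not reported here, so the size of difference that could have been called is not given. Features were joined when the smaller was a constant share of the larger within 2% plus rounding in each library, where both summed to at least 80. Named were all miR-467 features, miR-210, the 3 most abundant features of each other cluster family, and the 5 features most like miR-467a-5p. The 4 most abundant measurements were recomputed in every comparison under each alternative. Seeds are bases 2 to 8. Hairpins come from GENCODE M21 (GRCm38). The sequence of a hairpin is not reported here.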

Additional observations from a re-analysis of the deposited data

How the results depend on the processing

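The count of 0 called measurements held in all 5 comparisons under every alternative run, namely 8 or 0.5 as pseudocount, no filter on low values or one on a mean of 50, quantile, microRNA-total and median-of-ratios scaling, no intensity trend, the replicate block, the groups of a comparison alone (not run for the interaction), and leaving out each library. Scaling to the microRNA total moved the median of all features in KO normoxia against WT normoxia from −0.06 to 0.17 and that of the miR-467 measurements from −0.96 to −0.73. With that scaling the KO minus WT difference of miR-467e-5p in hypoxia turned from −0.15 to 0.0031. Leaving out each library in turn gave medians of 0.38 to 1.34 for hypoxia in KO, −1.46 to −0.50 for genotype in normoxia and 0.066 to 0.98 for the interaction, with both ends reached by leaving out a KO normoxia library. For hypoxia in WT it gave 0.048 to 0.38. It gave ranges of −0.83 to 0.054 for miR-467a-5p, −0.80 to 0.22 for miR-467c-5p and −0.18 to 0.064 for miR-467e-5p in WT hypoxia against WT normoxia. For genotype in hypoxia the ranges were −0.24 to 0.64, −0.36 to 0.66 and −0.33 to 0.032, and the interaction of miR-467a-3p ranged from −0.043 to 0.99. A tolerance of 1% for proportional values gave 12 measurements and 5% gave 10. The numbers 1 and 2 are not stated to pair libraries, and the number 1 minus number 2 difference correlated between groups with r of 0.15 to 0.55. With the replicate block miR-467a-5p kept its difference of −1.46 for genotype in normoxia at adjusted p = 0.0966 (0.0966 to 0.754 over the alternatives), and the counts of called measurements stayed at 0, while over all features the count in WT hypoxia against WT normoxia went from 0 to 8. With 2 libraries a group, values below about 10 were not tested.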

Other observations

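The letters AAGTGC stood within the first 9 bases of 14 of the 813 listed microRNAs (1.72%), searched on the microRNA strand only, a set chosen after miR-17-5p and miR-106b-5p had been found among the features most like miR-467a-5p. The 14 are 4 miR-467 members, the relatives miR-17-5p, miR-20a-5p, miR-20b-5p, miR-93-5p, miR-106a-5p and miR-106b-5p, together with miR-294-3p, miR-350-5p, miR-292-3p and miR-295-3p. miR-20a-5p held 37619 and 32703 at normoxia and 46284 and 27488 at hypoxia in the WT libraries, against 22154 and 14358 at normoxia and 48577 and 24354 at hypoxia in the KO libraries. Its r with miR-467a-5p over the 8 libraries was 0.80, and those of miR-20b-5p and miR-106a-5p were 0.70 each. Not every microRNA with these letters ran alike, since r was 0.67 for miR-467d-5p, 0.39 for miR-93-5p and 0.40 for miR-294-3p. miR-374-5p, with the highest r outside the family, does not hold them.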
